A study of Mus musculus with 32 samples.

Results

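Liver of CD-1 mouse embryos at 16.5 days post conception was compared with liver of 10-week-old CD-1 females labelled as normal, the time 0 samples of a liver regeneration series. The comparison rests on 4 of the 32 arrays of the series, 2 per group, chosen by the source name and title of each sample. Each array was an Affymetrix Mouse Genome 430 2.0 chip hybridised with biotin-labelled cRNA from 6 microg of Trizol-extracted total RNA, and each RNA combined tissue of 3 or more animals. Both groups are the same outbred stock, and the labels name no transgene. The protocol of the adult samples describes the anaesthesia and hepatectomy of the whole series, and whether the time 0 animals were anaesthetised is not given. They differ in age and may differ in sex, since the adults were all female and the sex of the embryos is not given. Embryonic livers were microdissected free of the retrohepatic vena cava. In the embryonic samples the age field reads 10.5 days at every stage and the description field names adult female liver, so those 2 fields contradict the source names and were not used. The 2 arrays of a group are separate samples of that kind, without word of separate litters or days. The spread behind p-values and standard errors was estimated from the array pairs of all 16 groups of the series. It is therefore not the spread of these 4 arrays alone. A further 10 arrays, of 10.5 to 14.5 days, were used to follow how each gene moved before 16.5 days.

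The fetal liver houses blood formation as well as immature hepatocytes, and in midgestation red cell precursors make up much of the organ. Its hepatocyte precursors, the hepatoblasts, already secrete plasma proteins but divide rapidly and express fetal genes such as alpha-fetoprotein and insulin-like growth factor 2. Around birth and weaning blood formation moves to bone marrow and spleen, and hepatocytes take on drug metabolism, bile acid synthesis, nitrogen disposal and glucose output. The comparison asks which of these adult features the liver still lacks, and which embryonic ones it still carries, a few days before birth.

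Array medians were 76.4 and 73.4 in the adult and 76.1 and 79.5 at 16.5 days, in the linear units deposited. The highest values were between 9290 and 10111 on all 4 arrays and reached 13299 elsewhere in the series, so these maxima are not a fixed ceiling. Whether the signal flattens for the most abundant transcripts was not tested. The 3′ to 5′ log2 ratio of the Actb control probe sets, a measure of RNA integrity, was 0.78 and 1.02 in the adult and 0.48 and 0.38 at 16.5 days, while that of Gapdh was between -0.33 and -0.17 on all 4. Among the earlier embryonic arrays, array 1 of 10.5 days had a Gapdh ratio of 1.49, against -0.32 on array 2. Levels and trends that start at 10.5 days rest in part on that array. Differences below are adult minus 16.5 days on the scale log2(value + 16), with their standard error. A gene was called at an adjusted p below 0.05 in limma. The 2 adult arrays were not alike in hepatocyte genes. Among the 281 genes called higher in the adult with an adult mean of at least 1000, 278 had the higher value on adult array 2, with a median ratio of 1.68 between the arrays. For genes that were not called the adult arrays differed by a median of -0.03 on the log2 scale. Some results are also given without 1 of the adult arrays, but not every result that this difference may affect.

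Of 18194 genes, 2964 (16.3%) were called higher in the adult and 4676 (25.7%) lower, and 10554 were not called. Among these called genes the arrays of the groups did not overlap for 2959 of the higher and 4671 of the lower. The calls rest on the same arrays, so this count adds no support to them. The share without overlap over all genes is not given here. At least 4-fold differences were found for 537 genes that were higher and 812 that were lower, and at least 16-fold ones for 122 and 150. Higher genes made up 38.8% of the calls with the deposited scaling and 50.8% after quantile normalization of the arrays (3871 higher and 3746 lower), which shifted the median of all genes by 0.14 on the log2 scale. The direction of small differences is therefore relative to the scaling. A level of at least 1000 was reached by 666 genes in the adult and by 1009 at 16.5 days. Of the adult ones 74 were under 100 at 16.5 days, and of the embryonic ones 92 were under 100 in the adult. The summed level of 31 red cell genes was 64305 and 65534 at 16.5 days and 7630 and 8410 in the adult, so red cell RNA moved together with the results below, and its part in them was not tested. In whole tissue, fewer cells of a type and less RNA per cell cannot be told apart.

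**Figure D1:**
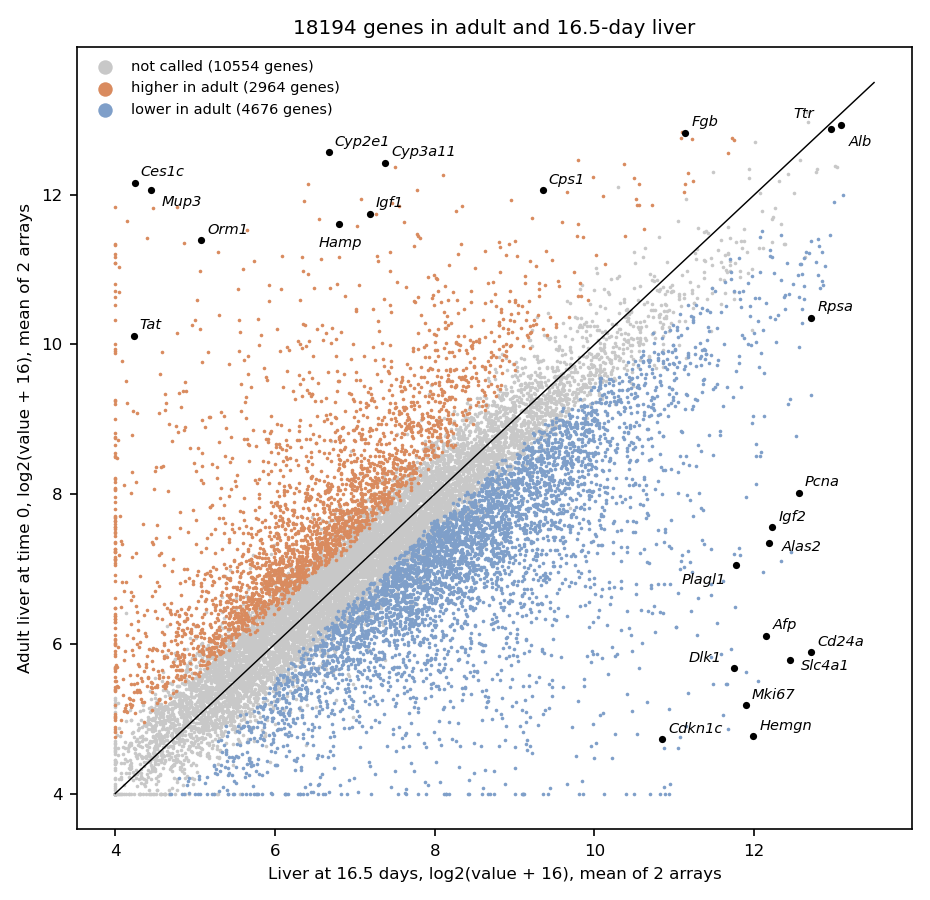
Mean log2(value + 16) of the 2 arrays at 16.5 days (horizontal axis) and in the adult (vertical axis) for 18194 genes, coloured by call, with the line of equal levels. Alb and Ttr lie near the line at the top, P450 and plasma protein genes such as Cyp2e1, Ces1c and Orm1 lie far above it, and Hemgn, Mki67, Cdkn1c and Afp lie far below it.

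Drug-metabolising enzymes were far from their adult levels. Of 30 measured cytochrome P450 genes of drug and steroid metabolism, 27 were called higher in the adult and 0 lower, and the median difference was 4.36, against -0.06 over all genes tested. Their summed level was 2496 and 2719 on the arrays of 16.5 days and 42873 and 68567 on those of the adult. The size of the median depended on the added constant: it was 3.46 with 64 and 5.02 with 4. At 16.5 days the mean of 14 of the 30 genes was under 50. Cyp2e1, which oxidises ethanol and small solvents, measured 79.1 and 93.2 at 16.5 days and 5294 and 6985 in the adult, a difference of 5.90 ± 0.21 (adjusted p = 5.25e-15, limma). Cyp1a2, which metabolises caffeine and aromatic amines, was at 0.98 and -7.48 in the embryo, which is no measurable signal, and at 1269.6 and 2125 in the adult. Cyp3a11, the main mouse enzyme of the CYP3A type, gave 144 and 156 at 16.5 days and 4759.8 and 6359.5 in the adult (5.06 ± 0.21). In each of these genes every adult value lay far above every embryonic one. Cyp2c50 was below 0 on both embryonic arrays (-34.4 and -45.5) and reached 2506 and 5244 in the adult, though closely related Cyp2c copies may share its probes. The 3 P450 genes without a call were Cyp4a12a, Cyp4f15 and Cyp17a1, with differences of 0.52, 0.52 and 0.56. Without adult array 1 Cyp4a12a was called (1.61), and after quantile normalization Cyp4f15 was (0.94).

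The start of Cyp2e1 is shown because it holds a TATA box, a string found more often in P450 promoters than in most other lists counted. The 100 bases before the start of Cyp2e1 (RefSeq, GRCm38.p6, chr7:140763719-140763818, plus strand), with TATAAA in capitals, read as follows.
Cyp2e1: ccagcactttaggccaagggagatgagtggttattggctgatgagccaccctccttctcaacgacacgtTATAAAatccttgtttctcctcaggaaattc
TATAAA was found on either strand within 250 bases before the start in 13 of 30 promoters of measured P450 genes (43.3%), in 12.4% of all 32851 promoters of the table and in 2.08% of those of the mitosis genes described below. In Cyp2e1 it begins 31 bases before the start. These are matches of letters and not tested sites, and no share given here or below was corrected for base composition.

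Conjugating enzymes, which attach sugar, sulphate or glutathione to drugs and steroids, were likewise mostly higher in the adult. Of 39 measured, 31 were higher in the adult and 1 lower, with a median of 2.25. Ugt2a3, a glucuronosyltransferase, was below 0 on both embryonic arrays (-9.62 and -14.1) and at 869.9 and 1029.5 in the adult. The epoxide hydrolase Ephx1 was at 87.5 and 73.3 at 16.5 days and 1108 and 1328 in the adult (3.68 ± 0.26). Sult3a1, a sulphotransferase found mainly in females, went from 3.55 and -0.23 to 2240.1 and 4597. The member lower in the adult was Gstp1, a glutathione transferase, at 5105 and 5172 at 16.5 days and 1887 and 4139.6 in the adult (-0.87 ± 0.34). That call was lost without adult array 1 (-0.31) or either array of 16.5 days, and the difference was 0.01 after quantile normalization. Ces1c, a secreted carboxylesterase, measured 6.41 and -0.16 at 16.5 days and 3654 and 5702 in the adult. Its embryonic values were near 0, so its difference of 7.92 ± 0.30 is set by the added constant.

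Bile acid genes were nearly all below their adult levels. Of 28 measured genes of bile acid synthesis and transport, 27 were higher in the adult, with a median of 2.25, and the only one without a call was Abcb4 (-0.37). Abcb4 was called lower without adult array 1 (-0.58) and with the replicate block (adjusted p = 0.0457, limma). Cyp7a1, the rate-limiting enzyme of the classical pathway, was at 91.1 and 109.6 at 16.5 days and 626 and 264 in the adult (1.87 ± 0.43), so its adult arrays differed widely but did not overlap the embryonic ones. Cyp8b1, which sets the share of cholic acid, measured 28.1 and 22.5 at 16.5 days and 454 and 579 in the adult (3.68 ± 0.34). Baat, which conjugates bile acids with taurine, stood at 18.46 and 9.27 at 16.5 days and 675 and 629 in the adult (4.50 ± 0.30). Transporters were higher too. Slc10a1, which takes up bile salts from blood, was at 108 and 84.6 at 16.5 days and 1621 and 3222 in the adult, and Abcb11, which exports them into bile, at 42.2 and 43.9 at 16.5 days and 697 and 795 in the adult.

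Amino acid and nitrogen metabolism was part-way. Of 40 measured genes of amino acid breakdown 35 were higher in the adult and 0 lower (median 1.88), and of 19 genes of the urea cycle and nitrogen handling 14 were higher and 0 lower (median 1.56). Tat, the tyrosine aminotransferase known to appear at birth, was at 6.01 and -7.85 in the embryo and 1099 and 1094 in the adult (5.89 ± 0.51). Gnmt, which removes excess methyl groups from methionine metabolism, measured 222 and 186 at 16.5 days and 3361 and 5428 in the adult (4.29 ± 0.36), after rising from 38.7 at 11.5 days. Mat1a, which makes S-adenosylmethionine in adult liver, stood at 176 and 183 at 16.5 days and 2268 and 4386 in the adult (4.02 ± 0.37). Thus Tat had no measurable signal at 16.5 days, while Gnmt and Mat1a were measurable far below the adult level.

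Within the urea cycle the steps differed in size. Cps1, which makes carbamoyl phosphate from ammonia, was already at 622 and 652 at 16.5 days and at 3278 and 5559 in the adult (2.72 ± 0.33). Otc, which acts on its product, was at 556 and 537 at 16.5 days and 1305 and 2477 in the adult (1.69 ± 0.30). Arg1, the arginase that releases urea, was at 137 and 141 at 16.5 days and 1648 and 3219.8 in the adult and had the largest difference of these 3 (3.90 ± 0.57). On each of them adult array 2 read higher than adult array 1, and no embryonic array reached an adult value. Glul, which makes glutamine around the central vein, was at 1114 and 1158 at 16.5 days and 1134 and 2416 in the adult and was not called, with a 95% interval of -0.47 to 1.55. After quantile normalization its difference was 1.19 and called. Of 30 measured genes with a known zone in the adult lobule, 21 were higher in the adult and 0 lower. They came from both zones, among them Cyp2f2 of the portal side (69.0 and 63.7 at 16.5 days and 3177 and 4698 in the adult) and the pericentral Cyp2c37 (13.9 and 9.02 at 16.5 days and 1054 and 1186 in the adult).

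Fuel metabolism was closer to the adult. Of 21 measured genes of glucose and glycogen metabolism 13 were higher in the adult and 2 lower (median 1.27). G6pc, the last step of glucose release, was below 0 in the embryo (-19.4 and -47.1) and at 236 and 152 in the adult. Gckr, which holds glucokinase in the nucleus, was at 129 and 132 at 16.5 days and 608 and 584 in the adult (2.06 ± 0.16). By contrast Gys2, the liver glycogen synthase, was at 337 and 300.1 at 16.5 days and 260.3 and 389 in the adult (95% interval -0.55 to 0.55), a matched level in the sense defined below. Pklr, the pyruvate kinase of liver and of red cells, went the other way, from 896 and 965 to 389 and 387 (-1.23 ± 0.21).

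Among 31 genes of fatty acid oxidation and ketone body formation 16 were higher in the adult and 0 lower (median 1.03), and 27 were higher after quantile normalization. Cpt1a, the gate for fatty acids into mitochondria, was at 164.8 and 183 at 16.5 days and 623 and 745 in the adult (1.88 ± 0.41), and Acaa1b, a peroxisomal thiolase, at 145.2 and 132 at 16.5 days and 2486 and 4679.9 in the adult (4.47 ± 0.40). Fabp1, the liver fatty acid carrier, was already at 2085 and 2281 and reached 6959 and 7750.4 (1.74 ± 0.27). Of 36 genes of fat and cholesterol synthesis 14 were higher and 3 lower, with a median of 0.44. After quantile normalization 22 were higher, and without array 1 or array 2 of 16.5 days 9 and 8 were. Thrsp, a regulator of fat synthesis that responds to thyroid hormone and carbohydrate, had the largest difference (41.1 and 25.2 at 16.5 days and 1681 and 2467 in the adult, 5.40 ± 0.54). Its 3 probe sets did not move alike, with differences between -0.35 and 7.65. The cholesterol gene Sqle was at 754 and 810.3 at 16.5 days and 795 and 887 in the adult, with an interval of -0.63 to 0.84.

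Plasma carriers ranged from genes at the adult level to genes with little embryonic signal. Of 35 measured carriers and apolipoproteins 23 were higher in the adult and 1 lower (median 1.80). The median was 2.49 after quantile normalization, and the adult arrays differed by a median of 0.68 on this list. Alb, serum albumin, was at 8695 and 8651 at 16.5 days and 8205 and 7464 in the adult (interval -0.73 to 0.44), and Ttr, which carries thyroid hormone and retinol-binding protein, at 7856 and 8103 at 16.5 days and 7416 and 7674 in the adult (interval -0.66 to 0.50). Both lie near the highest values of these arrays, where a further difference may be hard to see. On both genes the embryonic arrays read slightly above the adult ones without a call, and both had risen from 1249 and 3119.9 at 10.5 days. Ahsg, fetuin-A, was at 3398 and 3352 at 16.5 days and 6347 and 7532 in the adult (1.03 ± 0.27). The acute-phase carrier Orm1 was at 17.9 and 17.8 in the embryo and 1968 and 3626 in the adult (6.31 ± 0.31), and Hp, which binds free hemoglobin, was at 121 and 117 at 16.5 days and 2875 and 5334 in the adult (4.87 ± 0.25). Mup3, one of the major urinary proteins, was at -6.38 and 13.96 and 3359 and 5444, although the many Mup copies may share its probes. Serpina6, the corticosteroid-binding globulin, was the carrier lower in the adult, at 7145 and 7269.9 at 16.5 days and 1192 and 2440.5 in the adult (-2.07 ± 0.60), a call lost without adult array 1 (-1.56).

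Alb and its neighbour Afp, 29.8 kb downstream on the same strand of chromosome 5, are shown together because they were among the most abundant embryonic transcripts and Afp was low in the adult while Alb was not. Fgb, the fibrinogen beta chain, stands for the coagulation genes. TTGCNNAA, a core of C/EBP sites, and TATAAA are in capitals where either strand holds them (as TTNNGCAA or TTTATA when read on the other strand), and no match shown overlaps another. The 100 bases before each start are chr5:90460770-90460869 (plus) for Alb, chr5:90490614-90490713 (plus) for Afp and chr3:83049864-83049963 (minus) for Fgb, on GRCm38.p6 from RefSeq.
Alb: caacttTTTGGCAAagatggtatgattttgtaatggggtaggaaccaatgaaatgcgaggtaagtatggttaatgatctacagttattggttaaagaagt
Afp: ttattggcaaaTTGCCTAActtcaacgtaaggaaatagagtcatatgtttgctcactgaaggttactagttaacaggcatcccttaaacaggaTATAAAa
Fgb: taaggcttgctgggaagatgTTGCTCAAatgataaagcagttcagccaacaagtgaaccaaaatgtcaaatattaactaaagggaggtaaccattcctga
TTGCNNAA was found within 250 bases before the start in 34.2% of carrier, 23.5% of coagulation and 33.3% of P450 promoters. It was found in 9.56% of all promoters of the table. Among neutrophil and progenitor granule genes the share was also 33.3%, so the string was not particular to hepatocyte genes.

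Most coagulation factors and protease inhibitors were below their adult levels. Of 39 measured, 31 were higher in the adult and 1 lower, with a median of 1.29, which became 1.97 after quantile normalization. Of the 37 lists this one differed most between the adult arrays, by a median of 0.72. Without adult array 2, 19 members were higher and the median was 0.97, and without array 1 the median was 1.68. Fgb was at 2255 and 2209.5 at 16.5 days and 6222 and 8492 in the adult (1.70 ± 0.28). F9, the factor missing in hemophilia B, was at 63.4 and 63.1 at 16.5 days and 957 and 1064 in the adult (3.69 ± 0.26), and the trigger protease F7 at 62.5 and 55.1 at 16.5 days and 659.9 and 639.7 in the adult (3.16 ± 0.29). Hrg, a histidine-rich plasma protein, was below 0 at every embryonic stage and at 1742 and 3788 in the adult. A2m, alpha-2-macroglobulin, was the member lower in the adult, at 709 and 735 at 16.5 days and 151 and 197 in the adult (-1.96 ± 0.23). It had risen from 199.7 at 12.5 days.

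Complement genes were also more often higher than lower in the adult. Of 22 measured, 13 were higher (59.1%, against 16.3% of all genes) and 1 lower (4.55%, against 25.7%). The median was 1.31. Mbl2, a lectin that starts the lectin pathway, was at 54.6 and 49.8 at 16.5 days and 1612 and 3305 in the adult (5.09 ± 0.42), and C9, which forms the membrane pore, at 76.5 and 101 at 16.5 days and 949 and 1105 in the adult (3.32 ± 0.28). C4bp, an inhibitor of C4b, went from 24.4 and 22.2 to 1116 and 1569. The member lower in the adult was Fcna, a ficolin of macrophages (586 and 584 at 16.5 days and 262 and 224 in the adult, -1.22 ± 0.25). The C1q chains, also made by macrophages, were not called (differences of 0.68, 0.07 and 0.25). C6, also without a call, was at 192 and 155 at 16.5 days and 143 and 179 in the adult.

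**Figure D2:**
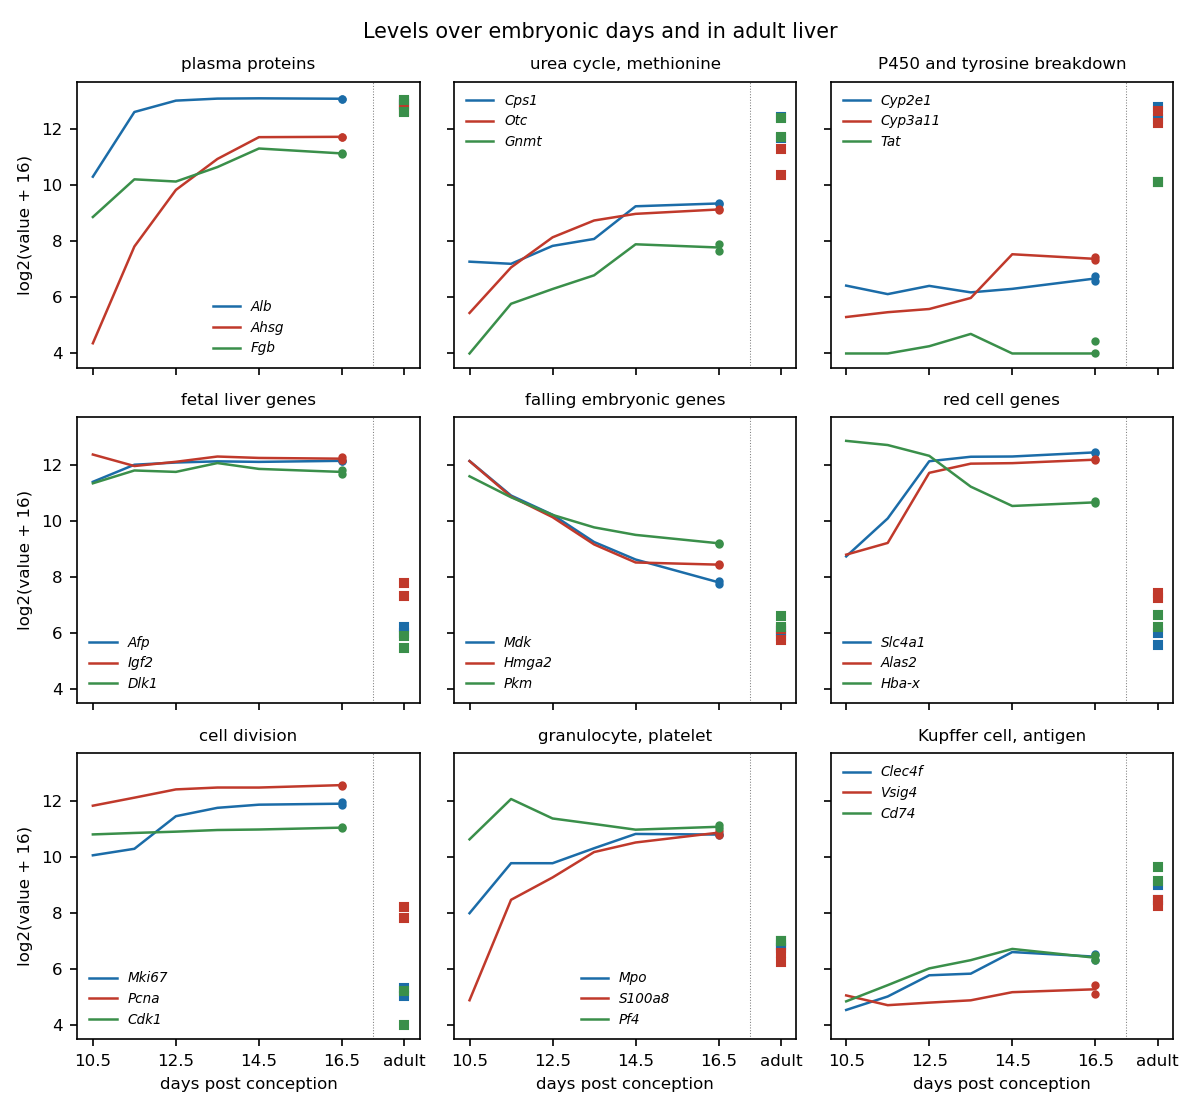
Levels of 27 genes as log2(value + 16) by embryonic day (lines, mean of 2 arrays, with circles for both arrays of 16.5 days) and in the adult (squares, both arrays). Alb, Cps1 and Otc climb before 14.5 days, Cyp2e1 and Tat stay low at all embryonic stages, Mdk, Hmga2 and Pkm fall through the embryonic stages, and Slc4a1, Alas2 and division genes are high at 16.5 days and low in the adult.

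Most transcription factors of the liver were higher in the adult. Of 50 measured liver transcription factors and nuclear receptors 31 were higher in the adult and 5 lower (median 0.85). Hnf4a, a master regulator of hepatocyte genes, was at 541 and 576 at 16.5 days and 828 and 1415 in the adult (0.94 ± 0.33, adjusted p = 0.028). That call was lost without adult array 2 (0.55) and without either array of 16.5 days. Cebpa was at 313 and 329 at 16.5 days and 897 and 1019 in the adult (1.53 ± 0.35). Larger differences were found among nuclear receptors. Nr1i3, the receptor CAR, was at 4.25 and 14.3 in the embryo and 642 and 522 in the adult (4.59 ± 0.42), and Esr1, an estrogen receptor, at 37.04 and 33.4 at 16.5 days and 401 and 375 in the adult (2.98 ± 0.33). Nr1i2, the receptor PXR, was at 177 and 191 at 16.5 days and 368 and 553 in the adult (1.22 ± 0.29). Nr1d2, a clock component, was at 37.4 and 36.3 at 16.5 days and 426 and 469 in the adult (3.13 ± 0.23), but the time of day of the harvests is not given. Tead2 and Sall4, both known from embryonic progenitors, were among the 5 that were lower (-2.14 and -2.21).

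The insulin-like growth factors differed in opposite directions. Igf1, the growth hormone-dependent factor of postnatal growth, was at 134 and 124.5 at 16.5 days and 2489 and 4702 in the adult (4.56 ± 0.45), with means of the earlier embryonic stages between 113 and 158. Igf2, the fetal factor, was at 4625 and 4909.6 at 16.5 days and 206 and 144.98 in the adult (-4.66 ± 0.18). Their receptors and partners differed in both directions. The growth hormone receptor Ghr was at 349.8 and 323 at 16.5 days and 1154 and 2391 in the adult (2.25 ± 0.33), its target Socs2 at 48.6 and 52.2 at 16.5 days and 324 and 476 in the adult (2.62 ± 0.33), and Igfals, which stabilises IGF1 in serum, at 113 and 89.6 at 16.5 days and 776 and 757 in the adult (2.74 ± 0.33). Igf1r (-1.25 ± 0.17), Igf2r (-2.24 ± 0.23) and the binding protein Igfbp1 (949 and 979 at 16.5 days and 44.8 and 244 in the adult, -2.96 ± 0.49) were lower in the adult. In the list as a whole 6 of 15 were higher and 5 lower.

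Iron genes were mixed. Of 20 measured, 10 were higher in the adult and 4 lower. Hamp, which encodes the iron hormone hepcidin, was at 79.5 and 115.2 at 16.5 days and 2268 and 4239.6 in the adult (4.80 ± 0.34), and Tmprss6, which restrains it, at 217 and 196 at 16.5 days and 952 and 1313 in the adult (2.35 ± 0.25). Tfrc, the transferrin receptor used by red cell precursors, was at 5384 and 5589 at 16.5 days and 749 and 444 in the adult (-3.21 ± 0.32). The metallothioneins, which store zinc, were abundant in the embryo. Mt2 was at 5998 and 6383 at 16.5 days and 837 and 2377 in the adult (-2.12 ± 0.42) and Mt1 at 7304 and 7421 at 16.5 days and 947 and 3489 in the adult (-2.01 ± 0.46). For Mt1 the call was lost without adult array 1 (-1.07), and its other probe set gave -0.04. The list of metallothionein and antioxidant genes gave 3 higher (16.7%) and 5 lower (27.8%) of 18, close to the 16.3% and 25.7% of all genes. Its median of -0.35 became 0.16 after quantile normalization, with 2 lower. Without adult array 1 the number lower was also 2.

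Defence genes were higher in the adult in 17 of 37 cases and lower in 1 (median 0.72). Serum amyloid Saa1 was at 27.2 and 69.8 at 16.5 days and 1563 and 1968 in the adult (4.86 ± 0.26), with the near-identical Saa2 at 24.9 and 29.3 at 16.5 days and 904 and 785 in the adult, and their reads on the array may not be separable. Bst2, an interferon-induced restriction factor, was at 36.8 and 32.7 at 16.5 days and 475 and 320.0 in the adult (3.00 ± 0.23). Among 21 genes known to differ between the sexes in adult mouse liver, 12 were higher in these females than in the embryo and 1 lower. The female-biased Cyp2b9 was at 25.1 and 37.2 at 16.5 days and 1047 and 1541 in the adult (4.78 ± 0.25), and male-biased genes such as Cyp2d9 were higher too (10.8 and 4.37 at 16.5 days and 562 and 494 in the adult, 4.54 ± 0.32). Eif2s3y, on the Y chromosome, was at 238 and 212 at 16.5 days and -1.74 and 2.90 in the adult (-3.79 ± 0.66), while the other measured Y-linked members, Kdm5d (-0.29) and Uty (-0.50), were not called. Other probe sets gave -1.49 for Kdm5d, -1.87 for Uty and -0.09 for Eif2s3y. With the mean of all probe sets Kdm5d (-0.53) and Uty (-0.81) were called lower.

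Fetal liver genes were mostly lower in the adult. Of 38 measured fetal and hepatoblast genes 25 were lower in the adult and 3 higher (median -1.20). Afp, the fetal counterpart of albumin, was at 4488 and 4556 at 16.5 days and 57.9 and 48.5 in the adult (-6.04 ± 0.29). Its 5 probe sets gave differences between -8.33 and 0.75. The imprinted growth regulator Cdkn1c was at 1753 and 1890.5 at 16.5 days and 6.60 and 15.2 in the adult (-6.11 ± 0.20), and Plagl1, an imprinted zinc finger gene, at 3424 and 3518 at 16.5 days and 106 and 128 in the adult (-4.71 ± 0.16). Cd24a, a surface protein of progenitors and of red cell precursors, was at 6668 and 6676 at 16.5 days and 41.5 and 45.1 in the adult (-6.82 ± 0.24). Dlk1, which marks hepatoblasts, was at 3258 and 3605 at 16.5 days and 28.2 and 43.4 in the adult (-6.07 ± 0.23), although its other probe set gave 0.16 with no call. Plagl1 likewise had a probe set near 0 (-0.03).

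Some fetal genes had already fallen a long way by 16.5 days and still stood above the adult. Mdk, the growth factor midkine, fell from 4503 at 10.5 days to 379 at 14.5 days and was at 218 and 200.01 at 16.5 days and 52.0 and 43.2 in the adult (-1.83 ± 0.18). Hmga2, a chromatin protein of embryonic cells, went from 4487 to 352 over the same days and was at 336 and 329 at 16.5 days and 54.3 and 37.6 in the adult (-2.51 ± 0.26), while another of its probe sets gave 0.88. Mest, another imprinted gene, fell from 4798 to 1479 and stood at 1280.3 and 1271 at 16.5 days and 104 and 142 in the adult (-3.23 ± 0.21). Lin28a, which blocks let-7 maturation, was at 10.9 and 13.8 at 16.5 days and 13.3 and 13.62 in the adult after 130.2 at 10.5 days. Its signal had thus reached the adult range, while Mdk, Hmga2 and Mest had not. Gpc3, a fetal surface proteoglycan, was at 1204 and 1543 at 16.5 days and 599.6 and 916 in the adult (-0.86 ± 0.23), a call lost without adult array 1 (-0.57) or array 2 of 16.5 days (-0.69). The 3 list members higher in the adult were Lin28b, Mirg and Dcn, and for Lin28b the embryonic values were below 0 (-98.8 and -99.9). The calls of Mirg and Dcn were lost without 1 of the arrays (1.28 for Mirg without array 1 of 16.5 days, 0.77 for Dcn without adult array 2).

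Of 23 measured glycolytic genes, fetal and adult isozymes together, 14 were lower in the adult and 0 higher, with a median of -0.84. Pklr, described above, was among them. Without array 1 of 16.5 days 9 were called. Pkm, the non-liver pyruvate kinase, fell from 3079 at 10.5 days to 711 at 14.5 days and was at 565 and 585 at 16.5 days and 82.6 and 59.2 in the adult (-2.78 ± 0.21). Hk1, a hexokinase of low Km that red cells use, was at 1072 and 1026 at 16.5 days and 75.9 and 66.8 in the adult (-3.61 ± 0.15), and the glucose transporter Slc2a1, also of red cells, at 2592 and 2614 at 16.5 days and 206 and 206 in the adult (-3.56 ± 0.18).

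Red cell genes were lower in the adult almost without exception. Of 31 measured genes of the red cell membrane and enzymes 29 were lower and 0 higher, with a median of -3.36. Slc4a1, the band 3 anion exchanger, was at 5556 and 5595 at 16.5 days and 31.6 and 47.8 in the adult (-6.66 ± 0.30). Hemgn, a nuclear protein of red cell precursors, was at 4025 and 4068 at 16.5 days and 12.2 and 10.4 in the adult (-7.22 ± 0.29), and Rhag, of the Rh complex, at 2021 and 1884 at 16.5 days and -10.7 and 3.05 in the adult (-6.82 ± 0.18). Icam4 was below 0 on both adult arrays (1842 and 1904 at 16.5 days and -38.8 and -31.4 in the adult). The 2 members without a call were Dmtn (-0.29) and Mfsd2b (-0.16), and the probe set of highest linear mean gave -4.16 and -4.32 for them.

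Heme synthesis genes were lower as well. Of 17 measured genes 15 were lower in the adult and 1 higher. Alas2, the red cell form of the first enzyme, was at 4559.6 and 4745 at 16.5 days and 138 and 156 in the adult (-4.84 ± 0.33), while Alas1, the form of hepatocytes, was the one that was higher (284 and 290.1 at 16.5 days and 987 and 633 in the adult, 1.41 ± 0.32). Slc25a37, mitoferrin, which brings iron into mitochondria, was at 5632 and 5637 at 16.5 days and 131 and 136 in the adult (-5.24 ± 0.28). Alas2 is shown for the strings of red cell promoters, with AGATAA, a core of GATA1 sites, and CACCC, bound by KLF1 and related factors, in capitals on either strand. The stretch is chrX:150547317-150547416 (plus) of GRCm38.p6.
Alas2: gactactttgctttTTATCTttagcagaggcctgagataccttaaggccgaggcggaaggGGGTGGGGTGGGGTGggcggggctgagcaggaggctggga
AGATAA was found within 250 bases before the start in 22.2% of 27 promoters of measured red cell genes and in 9.99% of all promoters, and CACCC in 85.2% and 52.0%. Neither string was particular to red cell genes: AGATAA was found in 35.3% of promoters of the sex-predominant list and 20.0% of P450 promoters, and CACCC in 77.8% of bile duct promoters.

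The embryonic globins had fallen by 14.5 days and were still above the adult at 16.5 days. Hba-x, the zeta chain of primitive red cells, fell from 7414 at 10.5 days to 1470.1 at 14.5 days and was at 1653 and 1566 at 16.5 days and 84.6 and 59.1 in the adult (-4.22 ± 0.27). Hbb-bh1 went from 5942 to 600.1 and stood at 547 and 565 at 16.5 days and 19.8 and -6.95 in the adult (-4.58 ± 0.68). Hbb-y, the epsilon chain, was at 1848 and 1849.8 at 16.5 days and 116 and 188 in the adult (-3.51 ± 0.22), with probe sets from -7.17 to 1.75. The adult chain Hbb-b2 had risen from 29.1 at 10.5 days to 2859 and 3060.2 at 16.5 days and was at 81.6 and 45.9 in adult liver (-5.26 ± 0.49). Its second probe set gave 2.08, so that globin is reported with reserve, as are all near-identical globin copies. Thus 4 of 6 measured globins were lower in the adult.

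The factors that drive blood formation were lower in the adult in 21 of 35 cases and higher in 3. Klf1, the red cell Krüppel-like factor, was at 3269 and 3382 at 16.5 days and 61.3 and 31.8 in the adult (-5.78 ± 0.24), Tal1 at 1678 and 1512 at 16.5 days and 16.3 and 27.5 in the adult (-5.42 ± 0.17), and the erythropoietin receptor Epor at 1042 and 1027 at 16.5 days and 39.2 and 45.6 in the adult (-4.17 ± 0.21). The 3 that were higher were Gata2, Cebpa and Hhex, of which Cebpa and Hhex are also hepatocyte factors. The call of Gata2 was lost without adult array 2 (0.53) or array 1 of 16.5 days (0.56). Granulocyte genes were lower in 12 of 23 cases (52.2%, against 25.7% of all genes) and higher in 2 (8.7%, against 16.3%). Mpo, myeloperoxidase of early granules, was at 1799 and 1721 at 16.5 days and 91.6 and 100.0 in the adult (-3.99 ± 0.24), and S100a8, of maturing neutrophils, at 1747 and 1945 at 16.5 days and 59.7 and 79.9 in the adult (-4.45 ± 0.34). S100a8 had climbed from 13.55 at 10.5 days. Of 24 megakaryocyte and platelet genes 11 were lower and 1 higher. The chemokine Pf4 was at 2051 and 2222 at 16.5 days and 111 and 112 in the adult (-4.07 ± 0.13) and Ppbp at 1179 and 1236 at 16.5 days and 11.5 and 12.2 in the adult (-5.46 ± 0.28).

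Resident macrophages had no common direction. Of 28 measured markers 5 were higher in the adult and 7 lower, shares close to the 16.3% and 25.7% of all genes. After quantile normalization 8 were higher, and without adult array 2 the number lower was 4. The members that were higher included Clec4f, a lectin of Kupffer cells, at 76.7 and 64.9 at 16.5 days and 497 and 339 in the adult (2.30 ± 0.29), the complement receptor Vsig4 at 27.1 and 18.48 at 16.5 days and 339 and 289 in the adult (3.09 ± 0.21) and the hemoglobin scavenger Cd163 at -3.93 and 6.84 at 16.5 days and 166 and 106 in the adult (2.96 ± 0.42). Cd5l, made by tissue macrophages, was at 1051 and 1106 at 16.5 days and 589.5 and 614 in the adult and was not called (interval -1.64 to -0.01), though it was with the replicate block (adjusted p = 0.0399, limma) and with the 4 arrays alone, and Hmox1, which degrades heme, was lower (512 and 494 at 16.5 days and 250.4 and 246 in the adult, -0.97 ± 0.16). Summed levels of the list were 8891 and 9349 at 16.5 days and 8556 and 8187 in the adult.

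Genes of lymphocytes and antigen presentation were higher in 15 of 35 cases and lower in 5. Leaving out any 1 of the 4 arrays left 1 to 3 lower. The invariant chain Cd74 was at 73.4 and 63.7 at 16.5 days and 553 and 774 in the adult (2.99 ± 0.36), the class II gene H2-Aa at 50.7 and 58.1 at 16.5 days and 434 and 382 in the adult (2.59 ± 0.24) and the immunoproteasome subunit Psmb8 at 20.2 and 20.4 at 16.5 days and 270.4 and 164 in the adult (2.64 ± 0.42). For class I, H2-K1 was at 501 and 495 at 16.5 days and 1307 and 1784 in the adult (1.59 ± 0.49), a call lost without adult array 2 or either array of 16.5 days, and its probes may read other class I genes.

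Endothelial genes were higher in the adult in 11 of 32 cases and lower in 3, while 18 were not called. Without adult array 1 the number higher was 7. Dnase1l3, a DNase of sinusoidal endothelium and macrophages, was at 29.4 and 21.7 at 16.5 days and 319 and 383 in the adult (3.14 ± 0.31), and the phosphatase Ptprb at 60.6 and 49.3 at 16.5 days and 335 and 341 in the adult (2.32 ± 0.14). Lyve1, a hyaluronan receptor of sinusoids, was lower in the adult (207 and 224 at 16.5 days and 100.2 and 81.9 in the adult, -1.12 ± 0.20). The stellate cell and matrix list had 10 higher and 21 lower of 50. Of its 10 collagen genes 7 were lower, among them Col1a1 at 353 and 353 at 16.5 days and 26.0 and 41.4 in the adult (-2.91 ± 0.37) and Col3a1 at 1392 and 1434 at 16.5 days and 333 and 466 in the adult (-1.80 ± 0.25), whereas Rgs5, a pericyte gene, was higher (49.1 and 42.2 at 16.5 days and 460.2 and 428 in the adult, 2.90 ± 0.20). Bile duct genes gave 3 higher (16.7%) and 2 lower (11.1%) of 18, against 16.3% and 25.7% of all genes. After quantile normalization 5 were higher and 1 lower, without adult array 1 the number higher was 1, and without array 2 of 16.5 days the number lower was 1. Krt19, a defining marker of bile ducts, was at 59.7 and 66.2 at 16.5 days and 57.6 and 67.1 in the adult. Of 28 markers of neighbouring organs 6 were lower (21.4%) and 2 higher (7.14%), no more than the shares of all genes. Without adult array 1, adult array 2 or array 2 of 16.5 days 1 was higher. Among the lower, the skeletal muscle actin Acta1 was at 366 and 559 at 16.5 days and 76.7 and 157 in the adult (-1.89 ± 0.32).

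Cell division was the other large block. Of 42 measured DNA replication genes 37 were lower in the adult and 0 higher (median -3.35). Of 54 mitosis genes 50 were lower and 2 higher (median -3.44). With an added constant of 64 the medians were -2.55 for replication and -2.79 for mitosis. Mki67, the proliferation marker, was at 3947 and 3641 at 16.5 days and 24.1 and 17.0 in the adult (-6.71 ± 0.45). The sliding clamp Pcna was at 5953 and 6074 at 16.5 days and 279 and 212 in the adult (-4.54 ± 0.19), and Cdc6, which loads the replicative helicase, at 872 and 884 at 16.5 days and -7.53 and -21.3 in the adult (-5.80 ± 0.19). Cdk1, the mitotic kinase, was at 2067 and 2117 at 16.5 days and 21.0 and -19.6 in the adult (-6.44 ± 0.66), and its cyclin Ccnb2 at 1618 and 1664 at 16.5 days and -16.8 and -16.0 in the adult (-6.69 ± 0.53). The adult arrays held no measurable Ccnb2. The members higher in the adult were Cdc20 and Cdca3. For Cdc20 the embryonic arrays disagreed (-3.00 and 549.7) and another of its probe sets gave -5.29, and for Cdca3 another gave -4.61. Both calls were lost without adult array 1 or 2. The 5 replication genes without a call were Mcm3, Tyms, Ccne1, E2f1 and Hells, and another probe set gave -5.59 for Mcm3, -4.92 for Ccne1 and -3.87 for Hells. Without array 1 of 16.5 days E2f1 (-0.72) and Ccne1 (-0.76) were called lower.

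Cdk1 and Ccnb2 are shown because the CCAAT box, bound by the factor NF-Y, was found in most promoters of the mitosis list. CCAAT and TTTGAA, the core of the cell cycle homology region, are in capitals on either strand, in chr10:69352913-69353012 (minus) and chr9:70421555-70421654 (minus) of GRCm38.p6.
Cdk1: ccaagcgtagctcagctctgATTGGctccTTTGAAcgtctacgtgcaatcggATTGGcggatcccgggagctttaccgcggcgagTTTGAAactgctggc
Ccnb2: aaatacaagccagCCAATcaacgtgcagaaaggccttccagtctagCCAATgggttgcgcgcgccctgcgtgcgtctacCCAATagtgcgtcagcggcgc
CCAAT was found within 250 bases before the start in 39 of 48 promoters of measured mitosis genes (81.2%), in 55.8% of those of DNA replication genes and in 33.8% of all promoters. TTTGAA was found in 41.7% of mitosis promoters and 16% of all. CCAAT was also found in 60.5% of fat and cholesterol synthesis promoters and TTTGAA in 33.3% of P450 promoters. The Ccnb2 stretch has 3 CCAAT strings in the same orientation, 87, 54 and 21 bases before the start, and the Cdk1 stretch has 2 in the opposite orientation.

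The machinery of protein synthesis was also higher before birth. Of 44 measured genes of ribosome assembly 41 were lower in the adult and 0 higher (median -1.39). Ncl, nucleolin, was at 2649 and 2350.5 at 16.5 days and 445 and 336 in the adult (-2.64 ± 0.22), and Fbl, which methylates ribosomal RNA, at 1479 and 1401 at 16.5 days and 320.2 and 226 in the adult (-2.35 ± 0.20). Of 24 ribosomal protein and translation genes 20 were lower and 1 higher (median -1.65), with 13 lower without adult array 1. The median was -0.98 after quantile normalization. Rpsa, of the small subunit, was at 6638 and 6737 at 16.5 days and 1159.7 and 1449.6 in the adult (-2.35 ± 0.34), and Pabpc1, which binds poly(A) tails, at 5862 and 6166 at 16.5 days and 899 and 1074 in the adult (-2.59 ± 0.33). The count for oxidative phosphorylation depended on the scaling and the arrays fitted. Of 45 measured genes 10 were lower (22.2%, against 25.7% of all genes) and 0 higher (against 16.3%), with a median of -0.59. Quantile normalization gave a median of -0.02, with 4 lower and 6 higher. Without adult array 1, array 1 or array 2 of 16.5 days the number lower was 2, 3 and 1. It was 29 in the fit of the 14 embryonic and time 0 arrays and 26 without the groups of 48 h, 12 h and 10.5 days.

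**Figure D3:**
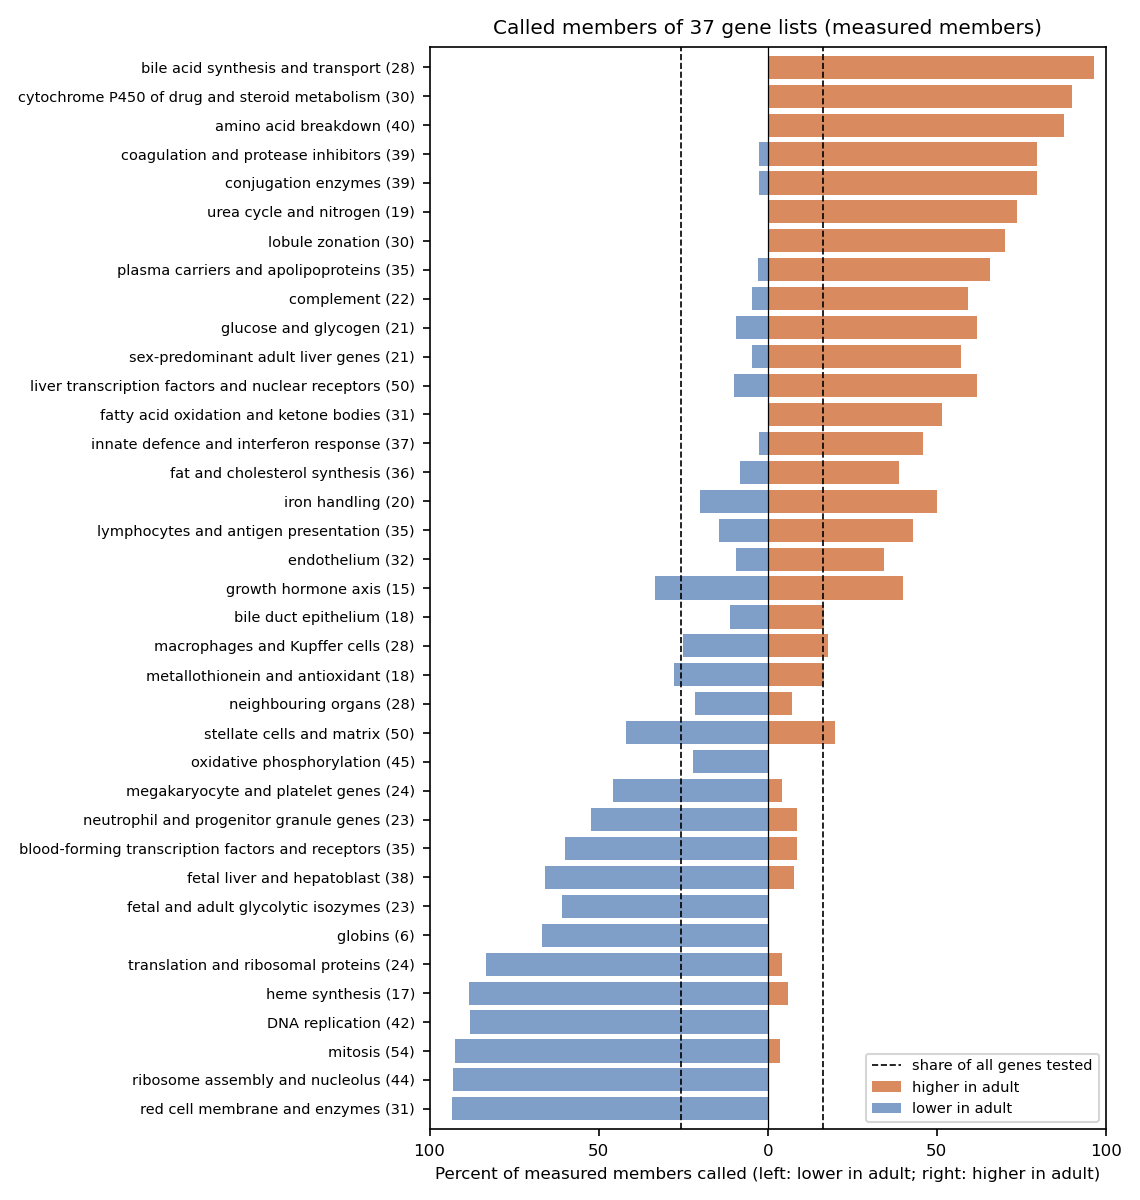
Share of the measured members of 37 gene lists called higher (right) or lower (left) in the adult, with the number measured in brackets and dashed lines at the 16.3% and 25.7% of all genes. Bile acid, P450 and amino acid genes reach furthest to the right, and red cell, ribosome assembly and mitosis genes furthest to the left.

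A matched level was defined by a 95% interval of the difference within 2-fold in either direction and a mean of at least 100 in both groups. It held for 4368 genes, 49.1% of the 8904 genes that reached 100 in both groups, and 537 of them were also called. Of the 4368, 514 had risen significantly from 10.5 to 14.5 days, 11.8% of the matched genes and 18.6% of the 2769 risers. That 11.8% lies below the 15.2% of all genes that rose. Of the genes that fell over those days, 538 (25.2%) were matched. Alb and Ttr were among the 514 risers. Aadac, a lipid deacetylase of hepatocytes, rose from 73.5 at 10.5 days to 1255 at 14.5 days, and stood at 1262 and 1394 at 16.5 days and 992 and 1966 in the adult (interval -0.61 to 0.76). Mgll, which cleaves monoglycerides, rose from 125.3 to 963 and was at 955 and 753 at 16.5 days and 824 and 771 in the adult (interval -0.58 to 0.40). Igtp, an interferon-inducible GTPase, rose from 73.5 to 623 and was at 659.6 and 745 at 16.5 days and 795 and 609.8 in the adult (interval -0.49 to 0.47). These 3 genes were thus within 2-fold of the adult before birth. After quantile normalization Aadac was called higher (0.66).

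The direction a gene had taken between 10.5 and 14.5 days, in 10 arrays of neither group, was set beside its later difference. Over those days 2769 genes (15.2%) rose and 2137 (11.7%) fell. Of the 2769 risers 533 (19.2%) were higher in the adult and 1315 (47.5%) were lower, against 16.3% and 25.7% of all genes. Of the 2137 that fell 377 (17.6%) were higher and 618 (28.9%) were lower. So more of the embryonic risers stood above the adult at 16.5 days than below it. The risers that were lower made up 28.1% of all genes lower in the adult, and those that were higher made up 18% of all genes higher. Of the genes higher in the adult 2054 (69.3%) had no called trend, and of those lower 2743 (58.7%). Most genes had none. Of those 13288 genes 15.5% were higher and 20.6% lower, against 16.3% and 25.7% of all genes. Among the risers with the steepest trends that were lower were Tmcc2 (131 at 10.5 days, then 3689 and 3887 at 16.5 days and 24.3 and 44.1 in the adult) and the urate transporter Slc2a9 (5.32, then 1403 and 1405 at 16.5 days and 12.2 and 25.5 in the adult). The second probe set of Slc2a9 gave 1.40.

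In several hepatocyte lists the distance from the adult shrank up to 14.5 days and was then similar at 16.5 days. For coagulation genes the median difference of adult minus stage was 4.52 at 10.5 days, 2.26 at 12.5, 1.09 at 14.5 and 1.29 at 16.5 days. Amino acid breakdown went from 3.52 to 1.86 and 1.88, and carriers from 3.98 to 1.77 and 1.80. P450 genes went from 5.29 at 10.5 days to 4.36 and 4.36. Red cell genes moved away from the adult, from -0.63 at 10.5 days to -3.36 and -3.36, as did heme synthesis, from -0.16 to -2.40 and -2.45. These differences share the adult arrays and are a description.

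In a comparison added after the data were seen, successive stages were tested against each other. From 10.5 to 11.5 days 1390 of 18194 genes (7.64%) were called, and from 11.5 to 12.5 days 552 (3.03%). The first of these steps uses the array of 10.5 days with the raised Gapdh ratio given above. The arrays of 10.5 days also differed most among the embryonic stages, with a standard deviation over genes of 0.534. The later steps called 21 (0.115%), 8 (0.044%) and, over the 2 days from 14.5 to 16.5 days, 15 (0.0824%), of which 5 (0.0275%) were higher and 10 (0.055%) lower at 16.5 days. At an unadjusted p below 0.05 that last step gave 1070 genes. Its genes included Actg2, a smooth muscle actin, and Sox2, both lower at 16.5 days, with differences of -2.11 ± 0.28 and -1.37 ± 0.24 on the log2 scale. A gene without a call in such a step is not shown to be constant.

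**Figure D4:**
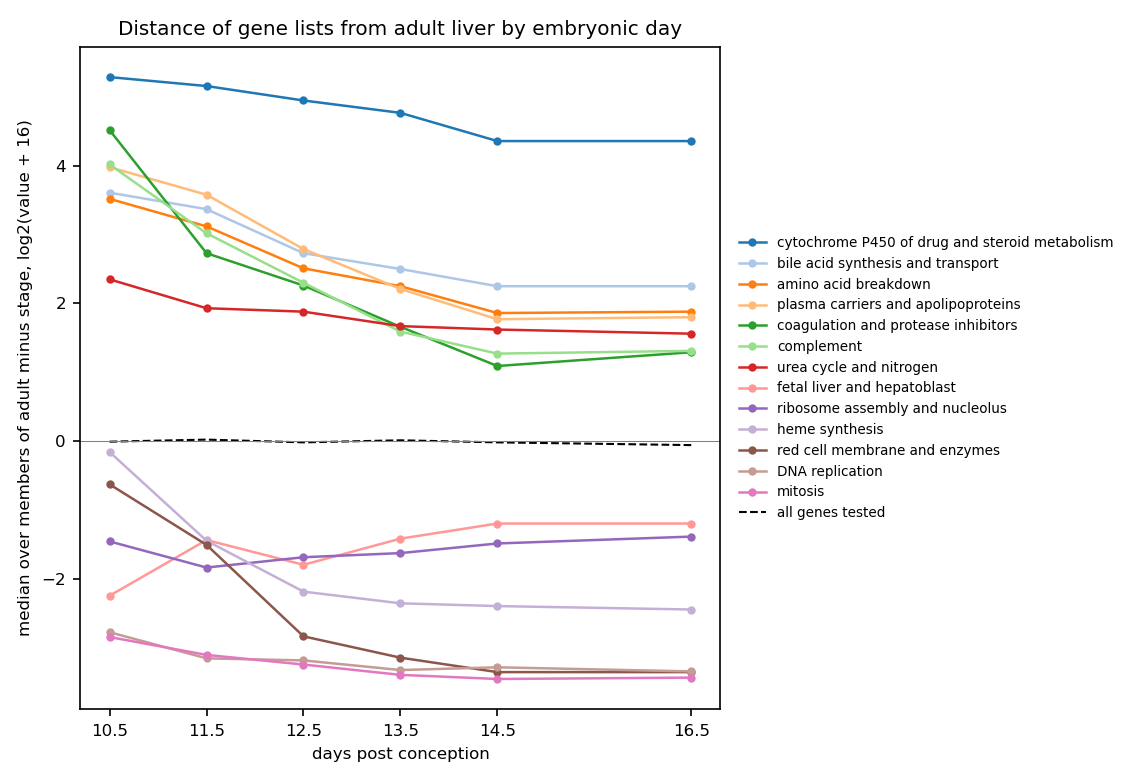
Median over the members of 13 gene lists of adult minus stage, on the scale log2(value + 16), at each embryonic day, with all genes tested as a dashed line. The lists above 0 approach the adult until 14.5 days and P450 genes remain farthest at 4.36, while red cell and heme genes move away from 0 up to 13.5 or 14.5 days.

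Some differences come from deposited values far below 0, which were set to 0 before the logarithm. Among the genes higher in the adult, 103 were below 0 on both arrays of 16.5 days, and 45 had a mean below -50 there. Among those lower in the adult, 68 were below 0 on both adult arrays and 23 had a mean below -50. Phf13 was at -1181 and -1125 at 16.5 days and 469 and 744 in the adult, and Fndc10 at -1090.5 and -1242 at 16.5 days and 343 and 347 in the adult. Both were among the genes with the steepest fall in the embryo that were higher in the adult. At 10.5 days the same probe sets were positive (407 and 162). Of the 377 genes that fell in the embryo and were higher in the adult, 18 had such values at 16.5 days, so for these the size of the difference is set by the added constant. Leaving out all genes with a mean below -50 at time 0 or any embryonic stage gave 2907 higher and 4649 lower.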

How the data were processed

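The authors deposited 1 linear intensity per probe set and array, some of them below 0, and the software behind it is not given in the sources used here. Of 45101 probe sets, 34958 were paired with exactly 1 gene, 932 with several genes and 9211 with no listed gene by the platform annotation. For each of 18194 genes the probe set of highest mean log2 value was kept. Values below 0 were set to 0, 16 was added and log2 was taken. limma 3.58.1 in R 4.3.3 was fitted to all 32 arrays (16 groups of 2, 16 residual degrees of freedom) with an intensity trend, and p-values were adjusted by Benjamini-Hochberg over 18194 genes, called under 0.05. The embryonic trend was a linear contrast over the stages from 10.5 to 14.5 days. On simulated arrays with known changes, 48 of 50 genes changed 4-fold were called, 44 of 100 changed 2-fold, 7 of 50 changed 1.5-fold, and 7 of 17994 unchanged ones. Few genes were changed in that simulation, whereas 42% of genes were called in the data, so its rates need not hold for the data. The number of arrays, 2 per group, limits the precision.

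The members and gene lists (37 lists, 1064 measured genes) were chosen with earlier results of these data known. The named genes were a fixed set, the 12 largest differences each way, up to 6 called members per list of smallest p, and 8 genes of steepest trend among those matched, rising and lower, or falling and higher. Genes named because they were the exceptions of a list (such as Gstp1, Serpina6, Fcna, Cdc20, Cdca3, Cyp17a1, Abcb4, Gata2, Hhex, Mirg, Dcn and the uncalled replication and red cell genes), further examples (Abcb11, Ahsg, Alas1, Fgb, Hmga2, Igfbp1, Lin28a, Mest, Pklr, Sall4, Slc10a1, Sqle, Golt1a, Actg2 and Sox2) and the comparison of successive stages were chosen after their values were seen. Replicate numbers shared by the groups did not pair the arrays: the deviations of same-numbered arrays correlated at -0.15.

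Promoters were read from the RefSeq table of GRCm38.p6, and coordinates are those of that build, not of the array. A total of 17 strings were counted on both strands: TATAAA for the TATA box, CAAAGTCCA and its part AAAGTCC for HNF4, TTGCNNAA and TTNCGCAA for C/EBP, CCAAT for NF-Y, TTTGAA for the cell cycle homology region, CACTTCCGG for ETS factors, CACGTG for E boxes, AGATAA and TGATAA for GATA factors, CCNCNCCC and CACCC for KLF factors, TTTCCCGC and TTGGCGC for E2F, GGCGGG for the GC box, and CGCGCG. Some overlap, and those reported were chosen after the shares were seen.

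Alternatives were other added constants, quantile normalization, a filter on low values, other probe set rules, fewer arrays in the fit, the replicate number as a block, leaving out each array, another span of the trend and a narrower matched band.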

Additional observations from a re-analysis of the deposited data

How the results depend on the processing

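Counts of genes called higher and lower in the adult were within 1.5 times of the main ones under every alternative run. They were 3871 and 3746 after quantile normalization and 2534 and 4187 with the 4 arrays alone. Without the groups of 48 h, 12 h and 10.5 days they were 3565 and 5335. Among genes of at least 100 in either group they were 2305 and 4220. The arrays of 48 h, 12 h and 10.5 days differed most within a group, with standard deviations over genes of 0.741, 0.497 and 0.534. Leaving out 1 array gave 2097 to 2530 higher, 3868 to 4134 lower and 3367 to 3602 matched. The replicate block gave 2942 and 4659. Since same-numbered arrays deviated oppositely, a crossed pairing was added after the data were seen and gave 2960 and 4690. The cross-counts with the embryonic trend depended on its span. Over 11.5 to 14.5 days 300 rising genes were higher in the adult and 686 lower, 136 falling genes were higher and 300 lower, and 197 rising genes were matched. With the fit without 48 h, 12 h and 10.5 days 239 falling genes were higher. A band of 1.5-fold left 1284 matched genes and 162 matched risers. Of 160 named genes, 130 kept their call and its direction, or the lack of a call, under every alternative that measured them. A change of sign in a gene called in neither fit was not counted. Some directions turned with the probe set. The mean of all probe sets gave -2.43 for Cdc20, -1.38 for Cdca3, -1.31 for Hells and -3.74 for Mcm3. The probe set of highest linear mean, an alternative added after the data were seen, gave -5.29, -4.61, -3.87 and -4.33 for them. Without probe sets ending in _x_at or _s_at the differences were -4.69 for Cdc20, 0.16 for Dlk1, 2.08 for Hbb-b2 and 0.88 for Hmga2, and quantile normalization gave 0.01 for Gstp1. For these turns the cause was not tested beyond the choice of probe set or scaling itself. Values near the highest of the arrays, such as those of Alb and Ttr, may limit what a difference can show, and values below 0 do limit it.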

Other observations

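Golt1a was called higher at 16.5 than at 14.5 days, with a value below 0 at 14.5 days, so no size is given. Its mean level was -94.9 at 10.5 days, -89.4 at 11.5, 403 at 12.5, 325 at 13.5 and -26.1 at 14.5 days, then 279 and 267 at 16.5 days and -146 and -157 in the adult. The level thus rose and fell between stages with no steady course. Of 4120 genes with several probe sets and a call, 422 had at least 1 probe set called the other way.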
